A study of Mus musculus with 30 samples.

Results

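The spindle assembly checkpoint was followed in mouse embryonic stem cells (ESCs) of the line Ainv15 through 8 genes: Ttk, Bub1, Bub1b, Bub3, Mad2l1, Cdc20, Mad1l1 and Zw10. Members were taken by name alone, as every probe of the array annotated to 1 of these symbols, which gave 13 probes for 8 genes out of 25697 probes for 18097 symbols. Cdc20 had 4 probes, Zw10 had 3 and each other gene had 1. For 7 genes, 12 probes were above background often enough to be tested, out of 15151 tested probes for 11177 genes. The probe for Bub1 was detected on 0 of 30 arrays and was not tested.

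The arrays came from 5 clones of the line, each grown with doxycycline (Dox, 1 µg/ml) and 5 days after Dox was taken away, with 3 arrays in each of the 10 groups. The rescue clones Bub1b_R, Chek1_R, Ppm1g_R and Ppp2r1b_R carried a constitutive short hairpin RNA (shRNA) against the gene in their name and a copy of that gene which the shRNA cannot recognise, and Control_R was the control clone. All clones, Control_R included, were kept with Dox before it was withdrawn, and all carried the reverse tetracycline transactivator through which Dox turns on the copy. The cells had been grown on mouse embryonic fibroblasts, which were removed by pre-plating, and then on gelatin in medium with leukemia inhibitory factor. The 129P2/OlaHsd background was given in the labels for Control_R. The labels do not say whether the 3 arrays of a group came from separate cultures or clones, so p-values measure the spread between these samples, which may be technical.

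The checkpoint holds a cell in metaphase until every chromosome is attached to the spindle. At an unattached kinetochore the kinase Ttk (also called Mps1) starts the signal, Bub1 and Bub3 dock there, and Mad1l1 together with Mad2l1 converts further Mad2l1 into its closed form. Closed Mad2l1, Bub1b (BubR1), Bub3 and Cdc20 form the mitotic checkpoint complex, which blocks the anaphase-promoting complex, while Zw10 belongs to the complex that brings Mad1l1, Mad2l1 and dynein to the kinetochore. ESCs divide rapidly and have a short first gap phase. In bulk samples such as these, fewer cells in a phase or of a type and less RNA per cell cannot be told apart.

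Levels below are log2 values of the signal after background correction and quantile normalization, a difference is a log2 difference of group means from 1 limma fit over all 30 arrays, and "changed" means an adjusted p under 0.05 (Benjamini-Hochberg over all tested probes) together with at least a 1.5-fold difference. A gene with several probes was counted by its brightest tested probe. Each probe was compared with itself across arrays, never with another probe. Replicate arrays correlated at 0.99 to 0.997 over the tested probes. The 12 arrays of Bub1b_R and Control_R detected 12913 to 13685 probes, and the 18 arrays of the other clones 11733 to 12898, with lowest detected signals of 12.9 to 20.9 and 27.8 to 58.1. A comparison of Chek1_R, Ppm1g_R or Ppp2r1b_R with Control_R therefore crosses both sets of arrays, and in it clone and set of arrays cannot be told apart. The arrays of Control_R also carry sample numbers from a separate, earlier block than those of all rescue clones. In every comparison with Control_R, that of Bub1b_R included, clone and deposit therefore cannot be told apart. The targeted gene went against its label past the adjusted p in 1 clone. Chek1 was higher there without Dox than with Dox by 0.71 (limma, adjusted p = 0.00115), at least 1.35-fold, and was detected on 0 of 3 arrays with Dox. These are called the arrays labelled Chek1_R below. On them Chek1 was below Control_R in both states, at least 3.02-fold with Dox and by -1.07 without Dox (limma, adjusted p = 1.33e-09 and 3.06e-06). Per the study the rescue vector for Chek1, like that for Bub1b, lacks the shRNA target. Whether the Chek1 probe reports the copy on these arrays is not given in the sources used here. Of the 7 early differentiation markers 7 were higher without Dox on these arrays by both limits, with a median of 2.75. Ppm1g fell by 1.25 on withdrawal in Ppm1g_R (limma, adjusted p = 4.5e-09). Ppp2r1b was higher by value without Dox in Ppp2r1b_R, by 0.20, and did not pass (limma, adjusted p = 0.365). The 8 embryonic stem cell markers on the list (Pou5f1, Nanog, Sox2, Esrrb, Tbx3, Tcl1, Klf4 and Zfp42) were each detected on 30 of 30 arrays.

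Bub1b is both a checkpoint gene and the target of 1 clone, so its shRNA is shown. The sequence belongs to the rescue clone construct for Bub1b and has 21 bases, all in lower case because no part of it is marked.

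Bub1b shRNA: gcacacttagacacatcagca

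Per the study's methods the rescue copy of Bub1b lacks this target because it lacks the untranslated region that holds it. Where the array probe for Bub1b lies relative to the shRNA target or to the rescue copy is not given in the sources used here, so its signal may be that of the endogenous mRNA, the copy, or both.

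Promoters were searched for the cell cycle genes homology region (CHR), an element found near the start of many genes of late cell cycle phases, spelled TTTGAA or TTCGAA on either strand, in the RefSeq windows of 250 bases before to 50 bases after an annotated start (GRCm38.p6). All 8 members had such a window, and 6 of the 8 genes held a match, against 21.7% of the 27025 genes with a window. Mad2l1 and Mad1l1 held none of these letters in the windows searched. The match nearest the start of each of the 6 genes is shown with the motif in capitals, read 5′ to 3′ on the strand of the gene, because the 6 genes share these letters.

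Ttk, chr9:83834684-83834713, plus strand: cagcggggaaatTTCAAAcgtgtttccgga

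Bub1, chr2:127831828-127831857, minus strand: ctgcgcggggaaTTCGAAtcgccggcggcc

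Bub1b, chr2:118598231-118598260, plus strand: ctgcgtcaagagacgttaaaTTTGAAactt

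Bub3, chr7:131560315-131560344, plus strand: gagccgttggcgTTCAAAatcagccaatga

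Cdc20, chr4:118437344-118437373, minus strand: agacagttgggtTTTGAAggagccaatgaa

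Zw10, chr9:49055421-49055450, plus strand: aacagactggcgTTTGAAaacctgtaggga

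Bub1b held a second match, TTCGAA, farther upstream. The element CCAAT, on either strand, was present in 5 of the 8 genes (Ttk, Bub1, Bub1b, Bub3 and Cdc20), against 41.1% of all genes with a window. A match of letters is a description and not a binding site.

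The first question was whether checkpoint genes moved when Dox was withdrawn and the rescue copy switched off. Over 7 tested genes and 5 clones, 0 of 35 differences passed both limits, beside 5.03% of all tested probes over the same 5 comparisons. By the brightest probes these differences ran from -0.43 to 0.48. The third probe of Zw10, not counted here, rose further in Ppm1g_R, from 5.69 with Dox to 6.23 without Dox. With every tested member probe counted, 2 passed limma's adjusted p on withdrawal in Ppm1g_R and none passed both limits. By limma's adjusted p alone 3 of the 35 passed, beside 22.3% of all tested probes. The 3 were Bub1b in Ppm1g_R (-0.38), Ttk in Ppp2r1b_R (0.48) and Mad2l1 on the arrays labelled Chek1_R (0.14). In Control_R itself the differences of the 7 genes ran from -0.17 to 0.42 and none passed the adjusted p. The 3 arrays without Dox and the 3 with Dox did not overlap in 11 of the 35 cases, 6 higher and 5 lower without Dox, beside 36.4% of all tested probes.

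**Figure D1:**
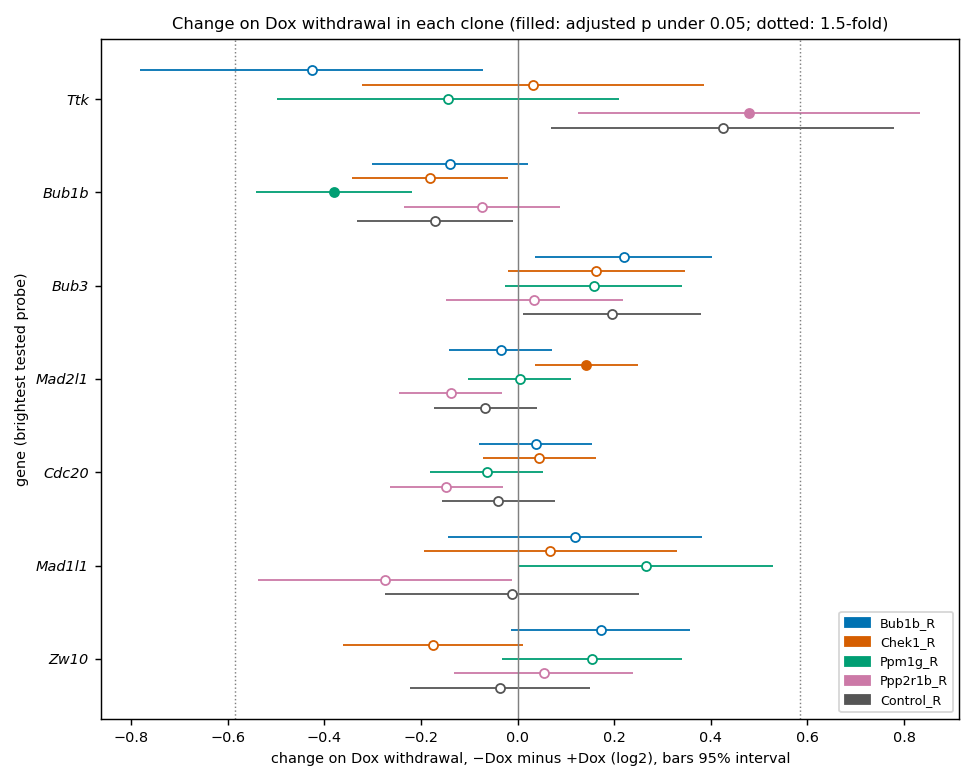
Change on Dox withdrawal for the brightest tested probe of 7 checkpoint genes in 5 clones, as the group mean without Dox minus that with Dox on the log2 scale, with 95% confidence intervals from the limma fit (3 arrays per group). Filled points pass the adjusted p of 0.05, dotted lines mark 1.5-fold, and every point lies between them, from -0.43 to 0.48; Chek1_R stands for the arrays labelled so.

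The mean change of the 4 rescue clones gave the same picture with a smaller error. No checkpoint gene changed by both limits, beside 3.56% of all tested probes, while 2 of 7 passed limma's adjusted p alone, beside 46.4%. Bub1b was lower without Dox (-0.19, SE 0.039, adjusted p = 0.000235) and Bub3 was higher (0.14, SE 0.044, adjusted p = 0.01). In Control_R the same genes differed by -0.17 (adjusted p = 0.201) and 0.20 (adjusted p = 0.197), and the change in a rescue clone minus that in Control_R did not pass the adjusted p for Bub1b or Bub3 in any of the 4 clones.

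Against Control_R more differences passed than on withdrawal, both for the checkpoint genes and for all tested probes. Without Dox, 4 of 28 differences (7 genes, 4 rescue clones) passed both limits, 1 higher and 3 lower, beside 29.6% of all tested probes, and 18 passed limma's adjusted p alone, beside 60.9%. With Dox, 5 of 28 passed both limits, 3 higher and 2 lower, beside 21.9% of all tested probes, and 15 passed the adjusted p alone, beside 53.1%. The arrays of a clone and of Control_R did not overlap in 23 of 28 cases without Dox, beside 64.9% of all tested probes, and in 17 of 28 with Dox, beside 58.7%. The 9 differences that passed both limits belonged to Ttk, Bub1b and Zw10. In this fit Bub3, Mad2l1, Cdc20 and Mad1l1 stayed within 1.5-fold of Control_R in every clone and state.

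**Figure D2:**
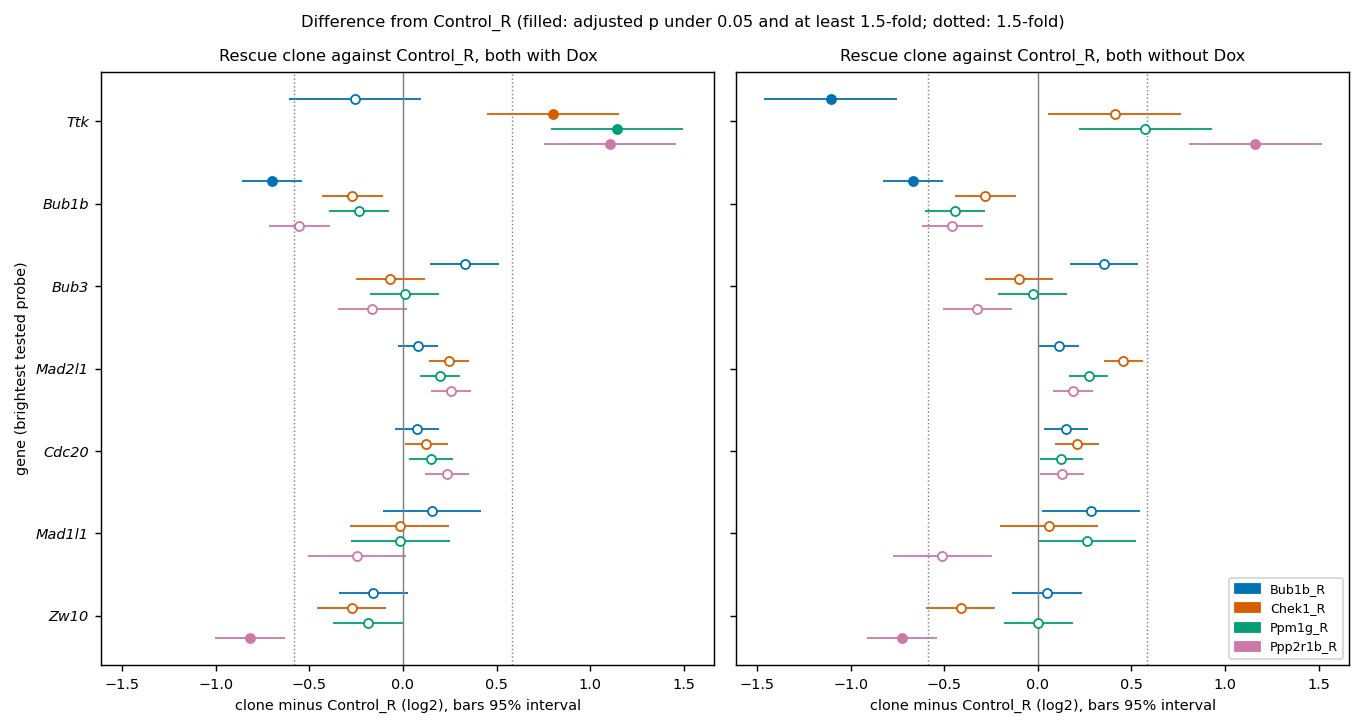
Difference of each rescue clone from Control_R on the log2 scale with 95% confidence intervals from the limma fit, with Dox on the left and without Dox on the right, for the brightest tested probe of 7 checkpoint genes (3 arrays per group). Filled points pass the adjusted p of 0.05 and 1.5-fold: Ttk 5 times, Bub1b 2 times (both in Bub1b_R) and Zw10 2 times (both in Ppp2r1b_R); Chek1_R stands for the arrays labelled so.

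Ttk, the kinase that starts the checkpoint signal, had the widest range of the 7 tested genes. Its group means ran from 5.32 in Bub1b_R without Dox to 7.58 in Ppp2r1b_R without Dox. The low end is not a measured level, since Ttk was detected on 1 of 3 arrays there, and no fold is given between these groups.

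In Bub1b_R Ttk stood at 5.56, 6.05 and 5.61 with Dox and at 5.00, 5.66 and 5.29 without Dox, where replicate 2 was the array that detected it. In Control_R it stood at 6.32, 5.64 and 6.04 with Dox and at 6.63, 6.34 and 6.30 without Dox. The groups with Dox overlapped, and all 3 arrays of Bub1b_R without Dox lay below all 3 of Control_R. The difference between the clones without Dox was -1.11 (SE 0.17, adjusted p = 6.99e-06), and with Dox it was -0.26 and did not pass. The size of the difference without Dox depends on how background is treated, at -0.69 with an offset of 50 and -2.00 without background correction, and it passed both limits under each. Both clones lie in the set of arrays with the lower lowest detected signals, but they differ in deposit, which cannot be told apart from clone here.

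On withdrawal Ttk was lower by value in Bub1b_R (-0.43, adjusted p = 0.0747) and higher by value in Control_R (0.42, adjusted p = 0.142), neither past the limit. The difference between these changes was -0.85 (SE 0.24, adjusted p = 0.0217) and passed both limits. Of 28 such differences from the change in Control_R (7 genes, 4 clones) it was the 1 that did so, beside 5.67% of all tested probes, and 2 passed the adjusted p alone, beside 12.7%. This call rests on single arrays: it was lost without replicate 2 of Bub1b_R with Dox (-0.69, adjusted p = 0.0753), replicate 1 of Bub1b_R without Dox (-0.69, adjusted p = 0.0722), replicate 2 of Control_R with Dox (-0.67, adjusted p = 0.0759) or replicate 1 of Control_R without Dox (-0.75, adjusted p = 0.0647). It was also lost when the fit held only the arrays compared (adjusted p = 0.0911) and with an offset of 50 (-0.53), and stood at -1.62 without background correction.

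On the arrays labelled Chek1_R Ttk stood at 6.83, 6.71 and 6.86 with Dox and at 6.66, 7.07 and 6.78 without Dox. In Ppm1g_R it stood at 7.15, 7.25 and 7.03 with Dox and at 7.05, 7.17 and 6.77 without Dox. In Ppp2r1b_R it stood at 7.03, 7.15 and 7.14 with Dox and at 7.53, 7.40 and 7.83 without Dox. Each of these 18 arrays lay above each array of Control_R and Bub1b_R: the 18 ran from 6.66 to 7.83 and the other 12 from 5.00 to 6.63. The same split without overlap held for 5.64% of all tested probes and for no other checkpoint gene.

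With Dox Ttk was higher than in Control_R by 0.80 on the arrays labelled Chek1_R (adjusted p = 0.000469, within 1.5-fold at 0.57 with an offset of 50), by 1.14 in Ppm1g_R (2.21-fold, adjusted p = 3.8e-06) and by 1.11 in Ppp2r1b_R (2.15-fold, adjusted p = 6.47e-06). Without Dox it was higher by 1.16 in Ppp2r1b_R (2.24-fold, adjusted p = 2.57e-06), and by 0.41 and 0.57 on the arrays labelled Chek1_R and in Ppm1g_R, which passed the adjusted p (0.0428 and 0.00531, up to 0.212 and 0.0789 over the alternatives) and not 1.5-fold. These 3 clones share the set of arrays with the higher lowest detected signals, so for Ttk the clones and the set cannot be told apart. Ppp2r1b_R was the clone in which Ttk separated by Dox, with all arrays without Dox above all arrays with Dox (0.48, adjusted p = 0.0428, up to 0.273 over the alternatives).

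**Figure D3:**
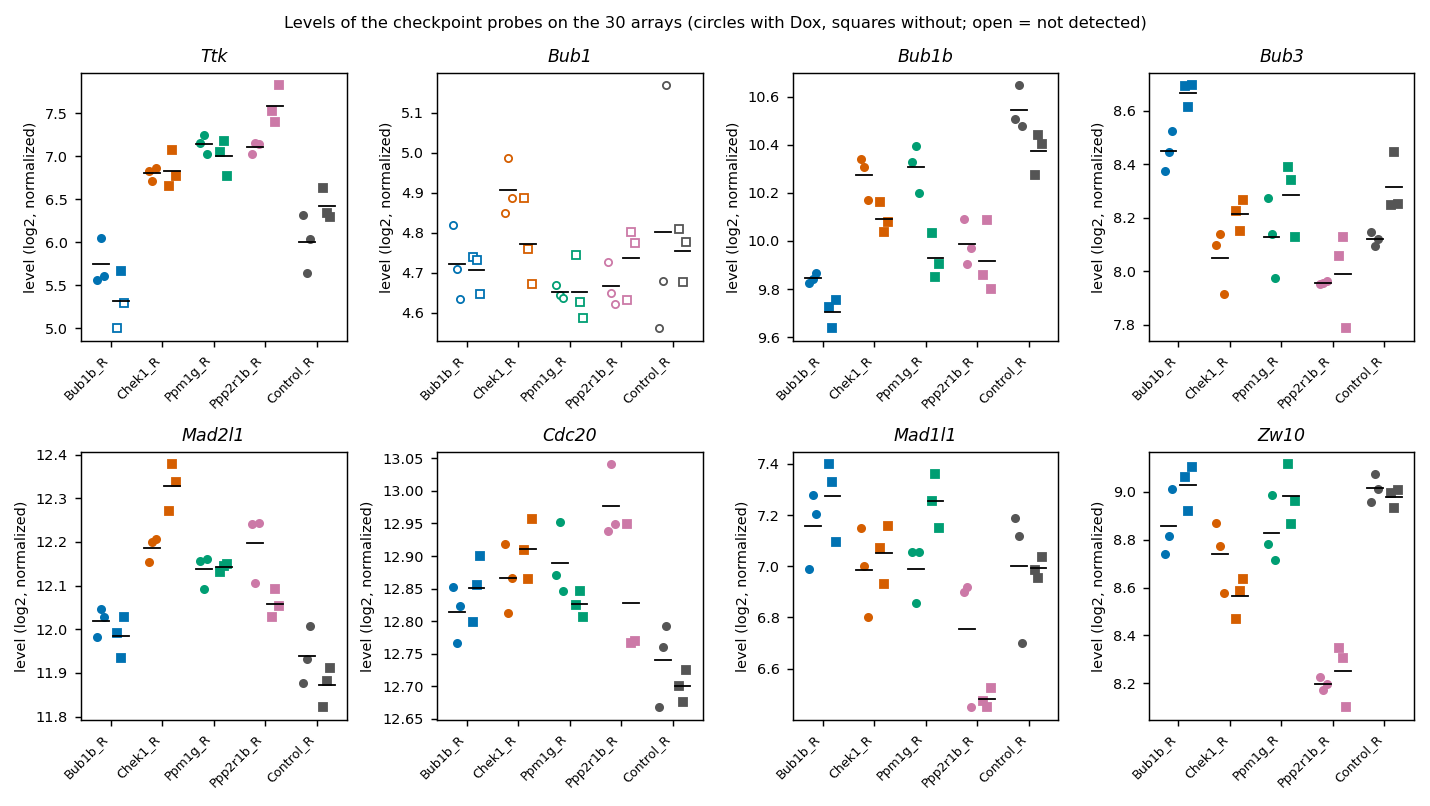
Normalized log2 level of 1 probe per checkpoint gene on each of the 30 arrays, by clone, with circles for arrays with Dox, squares for arrays without Dox and black bars for the mean of 3 arrays; open symbols were not detected, and each panel has its own axis. Ttk separates Bub1b_R and Control_R (5.00 to 6.63) from the other clones (6.66 to 7.83), Bub1b is highest in Control_R, Zw10 is lowest in Ppp2r1b_R, and every symbol for Bub1 is open.

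Bub1 encodes the kinase that docks at the kinetochore beside Bub3 and marks centromeric chromatin. Its single probe gave background-corrected signals from -26.6 to 9.3, no array called it detected, and no level or bound is given. The data say nothing of whether Bub1 mRNA changed.

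Bub1b, the subunit of the mitotic checkpoint complex that binds Cdc20, was highest in Control_R. It stood at 10.51, 10.65 and 10.48 with Dox and at 10.27, 10.44 and 10.40 without Dox there. In Bub1b_R it stood at 9.82, 9.84 and 9.87 with Dox and at 9.72, 9.64 and 9.75 without Dox. Every array of Bub1b_R lay below every array of Control_R.

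The difference from Control_R was -0.70 with Dox (SE 0.078, adjusted p = 1.08e-07), 1.62-fold lower, and -0.67 without Dox (SE 0.078, adjusted p = 1.05e-07), 1.59-fold lower. Under median scaling these were -0.56 and -0.46, still past the adjusted p and short of 1.5-fold. On withdrawal in its own clone Bub1b differed by -0.14 (adjusted p = 0.217; 95% confidence interval -0.30 to 0.02) with no overlap between the arrays.

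Bub1b was also below Control_R in the other clones. On the arrays labelled Chek1_R it stood at 10.34, 10.31 and 10.17 with Dox and at 10.16, 10.04 and 10.08 without. In Ppm1g_R it stood at 10.33, 10.40 and 10.20 with Dox and at 10.03, 9.85 and 9.90 without. In Ppp2r1b_R it stood at 10.09, 9.91 and 9.97 with Dox and at 9.86, 10.09 and 9.80 without. In each of the 8 comparisons of a rescue clone with Control_R in the same state, Bub1b was lower by limma's adjusted p, which was so for 8.46% of all tested probes, and all arrays of the clone lay below all arrays of Control_R. Under median scaling all 8 differences stayed below 0 but 3 missed the adjusted p: Ppm1g_R with Dox (-0.11, adjusted p = 0.334), and the arrays labelled Chek1_R with Dox (-0.23) and without Dox (-0.14, adjusted p = 0.215). For Ppm1g_R with Dox the adjusted p was also missed without replicate 3 of that group (-0.18, adjusted p = 0.0747) or replicate 2 of Control_R with Dox (-0.18, adjusted p = 0.0704).

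The 8 differences ran from -0.24 (Ppm1g_R with Dox) to -0.70. The 8 comparisons use the same 6 arrays of Control_R. Ppm1g_R was the clone in which Bub1b passed the adjusted p on withdrawal (-0.38, SE 0.078, adjusted p = 0.000843), all arrays without Dox lying below all with Dox, but the change was not shown to differ from that in Control_R (-0.21, adjusted p = 0.24). In Ppp2r1b_R with Dox the difference from Control_R was -0.55, or 1.47-fold, and it passed 1.5-fold without replicate 1 of Ppp2r1b_R with Dox (-0.60) or replicate 3 of Control_R with Dox (-0.59). Median scaling put Ppp2r1b_R past 1.5-fold in both states (-0.79 with Dox and -0.70 without Dox) and lower than Bub1b_R, so which of these clones had the lowest Bub1b depends on the scaling.

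Bub3, the partner through which Bub1 and Bub1b reach the kinetochore, was highest in Bub1b_R. It stood at 8.37, 8.45 and 8.52 with Dox and at 8.69, 8.62 and 8.70 without Dox, against 8.15, 8.09 and 8.12 and then 8.25, 8.45 and 8.25 in Control_R. The clones did not overlap in either state. The difference from Control_R was 0.33 with Dox (SE 0.089, adjusted p = 0.00438) and 0.35 without Dox (SE 0.089, adjusted p = 0.00173), both within 1.5-fold. In Ppp2r1b_R without Dox Bub3 was lower than in Control_R (-0.32, limma, adjusted p = 0.00266, up to 0.0963 over the alternatives). Without replicate 3 of that group the difference was -0.22. Its change on withdrawal was above 0 in all 5 clones, from 0.03 in Ppp2r1b_R to 0.22 in Bub1b_R, with none past the adjusted p.

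Mad2l1, which closes around Cdc20, was highest on the arrays labelled Chek1_R without Dox, at 12.27, 12.38 and 12.34, and stood at 12.15, 12.20 and 12.21 on those with Dox, next to Ppp2r1b_R with Dox at 12.24, 12.11 and 12.24. In Control_R it stood at 11.88, 11.93 and 12.01 with Dox and at 11.82, 11.88 and 11.91 without Dox. The groups did not overlap in either state, and the differences were 0.25 (adjusted p = 0.00035) and 0.46 (adjusted p = 5.52e-08), or 1.37-fold without Dox. Ppm1g_R was higher by 0.20 with Dox and 0.27 without Dox, past the adjusted p in both states, though the latter missed it under median scaling (0.14, adjusted p = 0.17).

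In Ppp2r1b_R Mad2l1 was higher by 0.26 and 0.19 and passed the adjusted p, but median scaling turned both differences, to -0.17 and -0.23. That scaling moved the median of all tested probes against Control_R to -0.18 in Ppp2r1b_R in each state, from -0.04 under quantile normalization, and to 0.10 in Bub1b_R without Dox, from -0.01. Under that scaling Mad2l1 in Ppp2r1b_R lay close to the median of all probes. Mad2l1 on the arrays labelled Chek1_R was higher without Dox by 0.14 (adjusted p = 0.039), a change that exceeded that in Control_R by 0.21 (adjusted p = 0.048) and is 1.10-fold. Both are marginal, with adjusted p up to 0.168 and 0.129 over the alternatives, and leaving out any 1 of 5 of the 6 arrays labelled Chek1_R lost both.

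Cdc20, the activator of the anaphase-promoting complex that the checkpoint holds back, varied least. Its brightest probe had group means of 12.70 to 12.98, a range of 0.28, and 1.21% of the tested probes had a smaller one. The 6 arrays of Control_R ran from 12.67 to 12.79. By this probe the rescue clones were higher than Control_R by 0.07 to 0.24, with 4 of 8 differences past the adjusted p, the largest in Ppp2r1b_R with Dox (adjusted p = 0.00094).

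The other probes of Cdc20 did not repeat this order. Over the 10 group means the brightest probe correlated with the others at -0.25, 0.01 and 0.32, while those 3 correlated with each other at 0.67 to 0.74. The second brightest probe was lower than Control_R without Dox in Ppm1g_R (-0.38, adjusted p = 0.00226) and in Ppp2r1b_R (-0.24, adjusted p = 0.0412). With all 4 probes averaged, the difference of Ppp2r1b_R with Dox from Control_R was -0.01, and median scaling of the brightest probe gave -0.27. No direction is therefore given for Cdc20.

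Mad1l1, which anchors Mad2l1 at the kinetochore, was lowest in Ppp2r1b_R. It stood there at 6.90, 6.92 and 6.45 with Dox and at 6.47, 6.45 and 6.52 without Dox, against 7.19, 7.12 and 6.70 and then 6.98, 6.95 and 7.04 in Control_R. Without Dox all arrays of Ppp2r1b_R lay below all of Control_R (-0.51, SE 0.13, adjusted p = 0.00118), a 1.42-fold difference. Without background correction this difference was -0.60 (limma, adjusted p = 0.00136) and passed both limits, and with an offset of 50 it was -0.39. With Dox the groups overlapped and the difference was -0.25. No other comparison of Mad1l1 passed the adjusted p.

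Zw10, of the complex that recruits dynein and Mad1l1, was also lowest in Ppp2r1b_R. Its brightest probe stood there at 8.23, 8.17 and 8.20 with Dox and at 8.35, 8.30 and 8.10 without Dox. In Control_R it stood at 8.96, 9.07 and 9.01 with Dox and at 8.99, 8.93 and 9.01 without Dox. All 6 arrays of Ppp2r1b_R lay below those of every other clone.

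The difference of Zw10 from Control_R was -0.82 with Dox (SE 0.090, adjusted p = 4.53e-08), 1.76-fold lower, and -0.73 without Dox (SE 0.090, adjusted p = 1.88e-07), 1.65-fold lower. A second probe followed the first across the groups (r = 0.94 over 10 group means that share their arrays) and gave -0.51 and -0.65, the latter past both limits. The third probe was detected on 18 of 30 arrays and correlated with the brightest at 0.50. By this probe the arrays of Ppm1g_R without Dox (6.03 to 6.35) lay above those with Dox (5.65 to 5.75). With the 3 probes averaged the differences of Ppp2r1b_R from Control_R were -0.55 and -0.50, past the adjusted p and short of 1.5-fold. On the arrays labelled Chek1_R the brightest probe was lower than in Control_R by value and by test (-0.27, adjusted p = 0.0144 with Dox; -0.41, adjusted p = 0.000368 without Dox), within 1.5-fold.

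The range over the groups differed among the genes. Bub1b (0.84), Zw10 (0.83), Mad1l1 (0.79) and Bub3 (0.71) had ranges for which 51.5%, 50.7%, 46.9% and 38.0% of the tested probes were smaller. Mad2l1 (0.46) and Cdc20 had ranges for which 10.9% and 1.21% were smaller. For Ttk no rank is given, because its lowest group was mostly not detected.

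**Figure D4:**
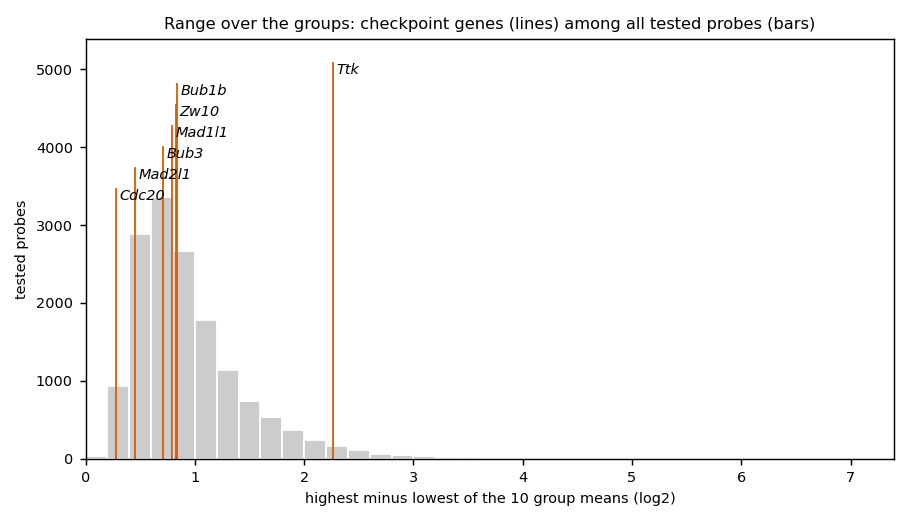
Range of the 10 group means (highest minus lowest, log2) for all 15151 tested probes as bars of counts, with vertical lines for the brightest tested probe of 7 checkpoint genes, whose heights are for labelling only. Cdc20 (0.28) and Mad2l1 (0.46) lie to the left of the bulk, 4 genes from 0.71 to 0.84 lie within it and Ttk lies in the right tail, where its place rests on a lowest group detected on 1 of 3 arrays.

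A limma F-test asked if the change on Dox withdrawal was unequal among the clones. It passed at the adjusted p for 2 of 7 checkpoint genes, Ttk (0.0208) and Mad2l1 (0.0417), beside 30.6% of all tested probes. The changes of Ttk were 0.48 in Ppp2r1b_R, 0.42 in Control_R, 0.03 for Chek1_R as labelled, -0.14 in Ppm1g_R and -0.43 in Bub1b_R. The changes of Mad2l1 in that order were -0.14, -0.07, 0.14, 0.005 and -0.03, and without the arrays labelled Chek1_R its adjusted p was 0.482.

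The checkpoint genes did not share 1 pattern. Over the 10 group means, which share arrays and normalization, the 21 pairs of genes correlated from -0.81 (Ttk with Bub3) to 0.83 (Mad2l1 with Cdc20). The pairs Mad1l1 and Zw10 (0.82) and Bub3 and Mad1l1 (0.78) came next. Bub1b correlated with its complex partners Bub3, Mad2l1 and Cdc20 at -0.46, -0.17 and -0.40. These are descriptions over 10 points, and the correlations of Cdc20 hold for its brightest probe.

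Genes outside the list followed the members below more closely. The pattern most like that of Ttk was that of Nampt (r = 0.989), the enzyme that makes a precursor of NAD, followed by Foxj3 and Ndufb9. Bub1b was most like Zfp143 (r = 0.973) and Gtse1 (r = 0.967), a microtubule-associated protein of G2 and S phase, and then Hk1. For Bub3 these were Dpp9, Taf11 and Fmnl3, for Mad1l1 Wdr18, Rps27a and Fen1, and for Zw10 Ppp1r16a, LOC677144 and Was. For Mad2l1 they were 6330548G22Rik, Asb1 and Mterfd3. Each was picked as the highest among 11177 tested genes on 10 points and is given as a description.

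Genes that act beside the checkpoint were followed on the mean change of the 4 rescue clones on Dox withdrawal. None of them changed by both limits in 5 lists, beside 3.56% of all tested probes, and the counts by adjusted p stand beside 46.4%. Among partners at the kinetochore, 12 of 16 were tested, 2 were higher and 3 lower by limma's adjusted p alone, and the median change was -0.08, against -0.02 for all tested genes. The largest were Tpr (0.37, adjusted p = 7.59e-11), a nuclear pore protein that binds Mad1l1, Pmf1 (-0.37, adjusted p = 8.47e-07), of the Mis12 complex, and Zwilch (-0.24), which acts with Zw10.

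Among genes of checkpoint silencing and cohesin protection, 7 of 10 were tested, with 1 higher and 4 lower by the adjusted p and a median of -0.15. They were led by separase, Espl1 (-0.32, adjusted p = 2.72e-06), Usp44 (-0.24), a deubiquitinase that acts on Cdc20, and Ppp1cc (-0.20), a catalytic subunit of protein phosphatase 1. Of the anaphase-promoting complex and its regulators 13 of 18 were tested, with 4 higher and 3 lower and a median of -0.02, and Cdc27 (0.31), Ube2c (-0.28) and Anapc2 (0.24) moved most.

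Of the mitotic kinases and cyclins 9 of 12 were tested, 1 was higher and 2 lower, with Cdca8 (-0.12), Incenp (-0.10) and Cdk1 (0.10, under its older symbol Cdc2a) as the largest. Of the replication and proliferation genes 11 of 12 were tested, with 2 higher and 4 lower, led by E2f1 (-0.31), Tyms (0.22) and Mcm3 (-0.20). By adjusted p alone 46.4% of all tested probes passed in this comparison.

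Cell type markers moved in the same arrays. Their counts on the mean change stand beside 46.4% of all tested probes by the adjusted p and 3.56% by both limits. The 7 early differentiation markers were all higher by the adjusted p on the mean change, 6 of them by both limits, with T at 2.43, Evx1 at 2.41 and Mixl1 at 2.15. Of the 8 embryonic stem cell markers 7 were lower by the adjusted p and 1 by both limits, Tcl1 (-0.64), followed by Esrrb (-0.47) and Pou5f1 (-0.37). Of the 12 fibroblast markers 8 were tested and Col1a2, Postn, Lum and S100a4 were not, with 6 higher and 1 lower by the adjusted p. Dcn (0.98) and Col1a1 (0.89) were higher by both limits, and Thy1 was the lower one (-0.44, adjusted p = 1.14e-10). The summed linear level of the 8 tested fibroblast markers in Bub1b_R was 8235 to 9268 with Dox and 10530 to 11310 without, and in Control_R 4803 to 5076 and 4262 to 4434. In Ppp2r1b_R, where Zw10 and Mad1l1 were lowest, it was 4963 to 5160 with Dox and 4195 to 4437 without. In Ppm1g_R it was 5320 to 5621 and then 8477 to 9130, and on the arrays labelled Chek1_R 7623 to 8330 and then 6258 to 6703. Such a sum follows the brightest markers and not each marker. On withdrawal in Ppp2r1b_R, 3 of the 8 were higher and 0 lower by both limits, with a median change of 0.25. On the arrays labelled Chek1_R 3 were higher and 1 lower without Dox, with a median of 0.26. The part of these markers in the levels of the checkpoint genes was not tested.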

How the data were processed

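Expression was measured on Illumina Mouse WG8-V2 beadchips, 30 arrays, 3 in each of 10 groups taken from the labels. The authors deposited a background-corrected signal intensity per probe, not normalized between arrays, and a detection p-value. The submitters' processing notes name lumi, with no version; other steps are not given in the sources used here. On 2 arrays 46 and 14 detection p-values stood as clock times and were turned back into fractions of a day (28 and 6) or taken from the probe with the nearest signal (18 and 8).

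Signals were corrected and quantile normalized with neqc in limma 3.58.1 (R 4.3.3), offset 16. Probes with a detection p-value under 0.05 on at least 3 arrays were tested. One limma fit held the 10 group means (20 residual and 3.38 prior degrees of freedom), with Benjamini-Hochberg adjustment over all tested probes. The change on withdrawal was also compared among the 5 clones by limma's F-test. The text names the 8 members, the 3 genes most like each (for Cdc20 not reported here), the 3 largest changes of each list, and the targets. The members and lists were chosen with earlier results of these data known. The fits were tested on simulated data. In a check for pairing, same-numbered arrays correlated at -0.0835 to 0.131. These are not correlations of the levels themselves, and no pairing by number was seen. For arrays, their number limits the precision. Figures were drawn with matplotlib. Alternatives were the background correction, scaling, offset, filter, fold limit, test, probe summary, a replicate block and leaving out each array; leaving out the arrays labelled Chek1_R was chosen after seeing the data. The Aurka_R clone was not analysed here.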

Additional observations from a re-analysis of the deposited data

Results flagged for a closer look

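The results here were picked because a change on Dox withdrawal differed between clones by a test. Their number did not exceed the share over all tested probes. The change of Ttk in Bub1b_R minus that in Control_R was -0.85 (limma, adjusted p = 0.0217), with 2 of 9 array pairs higher without Dox in Bub1b_R and 8 of 9 in Control_R. It was 1 of 28 such differences to pass both limits, beside 5.67% of all tested probes. As given above, this call rests on single arrays and was lost when some of them were left out. In the limma F-test of the change among the 5 clones, Ttk had an adjusted p of 0.0208 and Mad2l1 an adjusted p of 0.0417, so 2 of 7 checkpoint genes passed, beside 30.6% of all tested probes. For Ttk the F-test passed in each of the 30 fits that left out 1 array (adjusted p 0.00641 to 0.0487) and without the arrays labelled Chek1_R (0.0278), and missed the threshold without background correction (0.0517). For Mad2l1 it passed in 12 of those 30 fits (0.0182 to 0.107) and had an adjusted p of 0.482 without the arrays labelled Chek1_R. Mad2l1 missed it in 18 fits, which left out 5 of the 6 arrays labelled Chek1_R, 4 of the 6 of Ppp2r1b_R, and 3 of the 6 of each of Bub1b_R, Ppm1g_R and Control_R.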

How the results depend on the processing

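Of 2499 recomputed differences of single genes, 2437 kept their side of both limits, 40 passed them newly, 17 lost them and 5 turned. Among the 2437 were 73 that turned in sign. Their main difference had not passed the adjusted p, and the recomputed one did not pass both limits. The 5 were Cdc20 against Control_R with Dox in Ppm1g_R (-0.022, probes averaged) and in Ppp2r1b_R (-0.0092, probes averaged; -0.27, median scaling), and Mad2l1 in Ppp2r1b_R under median scaling with Dox (-0.17) and without Dox (-0.23). On withdrawal 0 calls became 1 without background correction (Ttk in Bub1b_R, -1.06) and 3 with no fold limit, and leaving out 1 array gave 0 to 1 (Ttk in Bub1b_R at -0.60 without replicate 2 of Bub1b_R without Dox). Against Control_R without Dox 4 calls became 2 at a limit of 2-fold and 18 with no fold limit (4 to 5 leaving out 1 array), and with Dox 5 became 2 and 15 (5 to 6); an offset of 50 took out Ttk for Chek1_R as labelled (0.57). In the change relative to Control_R 1 call became 0 with an offset of 50, with only the arrays compared and at 2-fold, and 2 with no fold limit (0 to 1 leaving out 1 array). In the mean of 4 clones 0 became 2 with no fold limit (0 leaving out 1 array). In the F-test 2 became 1 without background correction, with median scaling, with no detection filter and without the arrays labelled Chek1_R (1 to 2 leaving out 1 array). A replicate block left the 6 counts at 0, 4, 5, 1, 0 and 2 and moved no count over all probes by more than a ratio of 0.97. The cause of these changes was not tested. Signal near background limits Ttk in Bub1b_R and Bub1 throughout.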
